A study of Mus musculus with 5 samples.

Results

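Prox1, Spib and Gpr83 are 3 of the 55397 genes in the deposited table of normalised read counts from mouse liver tumours in which Prox1 had been switched on. Prox1 is the gene carried by the inducing plasmid. Spib and Gpr83 were put beside it because their counts in these same libraries followed the order of Prox1 and lay far above Control. The levels of the members and their differences between groups are therefore given as a description, with no test.

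PROX1 is a homeobox transcription factor of the prospero family. It is needed for the growth and migration of hepatoblasts in the embryo and for the identity of lymphatic endothelium, and in hepatocytes it often acts as a repressor together with histone deacetylases. SPIB is an ETS family transcription factor closely related to PU.1 (the product of Spi1). It works in B cells, in plasmacytoid dendritic cells and in M cells, the antigen-sampling cells of the gut epithelium. GPR83 is a G protein-coupled receptor found mainly in brain and in regulatory T cells, was first described as a gene induced by glucocorticoid in T cells, and has been reported to bind a peptide cut from proSAAS (the product of Pcsk1n).

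The tumours came from female C57BL/6N mice that were 8 weeks old at hydrodynamic tail vein injection, a rapid large-volume injection that brings plasmid DNA into hepatocytes. All mice received Sleeping Beauty transposase, Akt and NICD (the intracellular domain of NOTCH1, on a plasmid that also carries rtTA, the doxycycline-responsive activator), both behind the EF1a promoter. The 2 Control libraries were from mice given the doxycycline-dependent plasmid pT3-Tre-IRES-GFP, and the 3 Prox1 OE libraries were from mice given pT3-Tre-FLAG-mmProx1-IRES-GFP, with doxycycline food (6.25%) from day 21 in both groups and collection after a week of induction or at a humane endpoint, without a label for which. The samples are described as tumours from mice, without a label that ties each to an animal, so p-values measure the spread between these samples, which may be partly technical. The labelled transformed hepatocytes carried hepatocyte and bile duct transcripts in every library, and these moved with the groups. Alb, albumin, had 480678 and 798691 normalised counts in Control and 1978956, 1559106 and 2594529 in Prox1 OE replicates 1, 2 and 3, and the bile duct keratin Krt19 had 8442 and 10790 against 1643, 1968 and 1785. Neither overlapped between the groups, and their part in the levels of the members was not tested.

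Library totals ran from 48740863 to 56629477 reads. A normalised count is the number of reads divided by a size factor of the library, and 1 read was worth 0.822 to 1.18 normalised counts. Up to 3 reads were treated as a floor. Replicates were not copies of each other (chi-square per degree of freedom of at least 36.2 between any pair of libraries in a group).

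Prox1 (ENSMUSG00000010175, mm10 chromosome 1, 190118035 to 190170714, minus strand) is the gene that checks the labels. It had 4153 and 4664 normalised counts in Control replicates 1 and 2. In Prox1 OE replicates 1, 2 and 3 it had 48090, 11113 and 8231. All 3 induced tumours exceeded both Control tumours, and replicate 1 stood far above the other 2, holding 71.3% of the summed Prox1 OE signal. Against the Control mean, the level was 10.9, 2.52 and 1.87 times as high in replicates 1, 2 and 3. The mean was 4408 ± 361 in Control (SD, n = 2) against 22478 ± 22227 in Prox1 OE (SD, n = 3), and without replicate 1 the Prox1 OE mean was 9672 ± 2038 (SD, n = 2). The mean difference was 1.9 on the log2(normalised count + 1) scale. In a bulk tumour sample, more cells that carry the plasmid and more Prox1 RNA in each cell cannot be told apart. Reads from the plasmid and from the mouse gene are also summed, since both hold the mouse coding sequence.

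Spib (ENSMUSG00000008193, chromosome 7, 44525993 to 44532071, minus strand) was a low gene in Control, with 142 and 93.2 normalised counts in replicates 1 and 2. It had 8114, 3310 and 2314 in Prox1 OE replicates 1, 2 and 3. The lowest Prox1 OE value was 16.3 times the highest Control value, and replicate 1 was again the highest and replicate 3 the lowest of the induced tumours. The mean was 118 ± 34.6 in Control (SD, n = 2) against 4579 ± 3102 in Prox1 OE (SD, n = 3), with a mean difference of 5.09 on the log2(normalised count + 1) scale. Without Prox1 OE replicate 1 the mean of the group was 2812 ± 704 (SD, n = 2).

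Gpr83 (ENSMUSG00000031932, chromosome 9, 14860210 to 14870789, plus strand) was close to absent from Control, with 2 reads in replicate 1 and 0 in replicate 2. In Prox1 OE replicates 1, 2 and 3 it had 401, 108 and 76 reads, or 410, 127 and 88 normalised counts. Every induced tumour thus held Gpr83 RNA above the floor, and no Control tumour did. Set against the floor of 3 reads in each Control library, the Prox1 OE mean of 208 ± 176 (SD, n = 3) was at least 83.3-fold higher, and at least 43-fold higher without replicate 1. Its fitted difference of 6.69 on the log2(normalised count + 1) scale depends on the added count and is no bound.

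**Figure D1:**
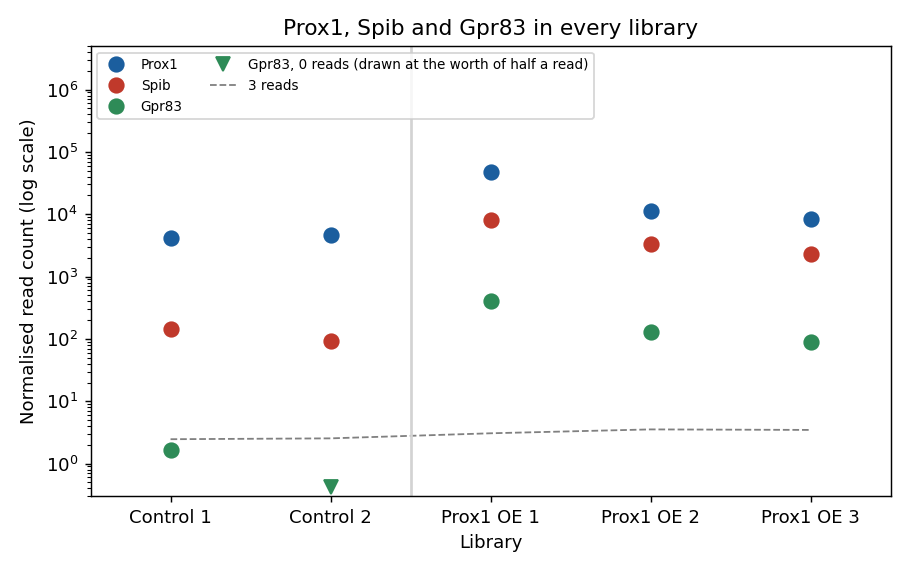
Normalised read counts (log axis) of Prox1, Spib and Gpr83 in each of the 5 libraries, 1 point per library, with the worth of 3 reads as a dashed line and the Control library with 0 Gpr83 reads drawn as a triangle below it. All 3 genes are highest in Prox1 OE replicate 1 (48090, 8114 and 410) and fall through replicates 2 and 3, and each Prox1 OE point is above both Control points of the same gene.

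Of the 17105 genes with a mean of at least 10 normalised counts, 5279 (30.9%) had all 3 Prox1 OE values over both Control values, beside 32.4% with all 3 under both and 63.3% without overlap in either direction, so that separation alone did not single out the members. The full order of Prox1 (Prox1 OE replicate 1 over 2 over 3 over both Controls) was followed by 410 genes (2.4%). Genes were also ranked library by library on their height above the Control mean, so that genes lower than Control came last. Gpr83 ranked 1, 1 and 2 among the 17105 genes in Prox1 OE replicates 1, 2 and 3. Spib ranked 2, 3 and 18. The place of Gpr83 above Spib depends on the added count. With 10 added, the log2 differences between the groups were 4.05 for Gpr83 and 4.99 for Spib. Prox1 itself ranked 38, 930 and 2585, at 3.45, 1.34 and 0.9 above its Control mean on the log2(normalised count + 1) scale. In replicate 3 many genes therefore stood higher above Control than the overexpressed gene. Spib and Gpr83 were chosen for lying far above Control in these libraries, so their ranks restate that choice.

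The steps between single induced tumours are given as a description, since the order of these libraries chose the members. From replicate 1 to replicate 2, Prox1 was 4.33 times as high (95% exact interval 4.23 to 4.42), Gpr83 3.22 times (2.6 to 4.02) and Spib 2.45 times (2.35 to 2.56). From replicate 2 to replicate 3 the ratios were 1.35 for Prox1 (1.31 to 1.39), 1.43 for Spib (1.35 to 1.52) and 1.45 for Gpr83 (1.07 to 1.97). Intervals cover counting error only and say nothing of the spread between tumours. Across all genes tested, 0.561% had a step from replicate 2 up to replicate 1 as large as that of Prox1, 1.11% as large as that of Gpr83 and 2.21% as large as that of Spib. The step from replicate 3 up to replicate 2 was matched by 11.3% of genes for Prox1, 8.72% for Spib and 8.33% for Gpr83.

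**Figure D2:**
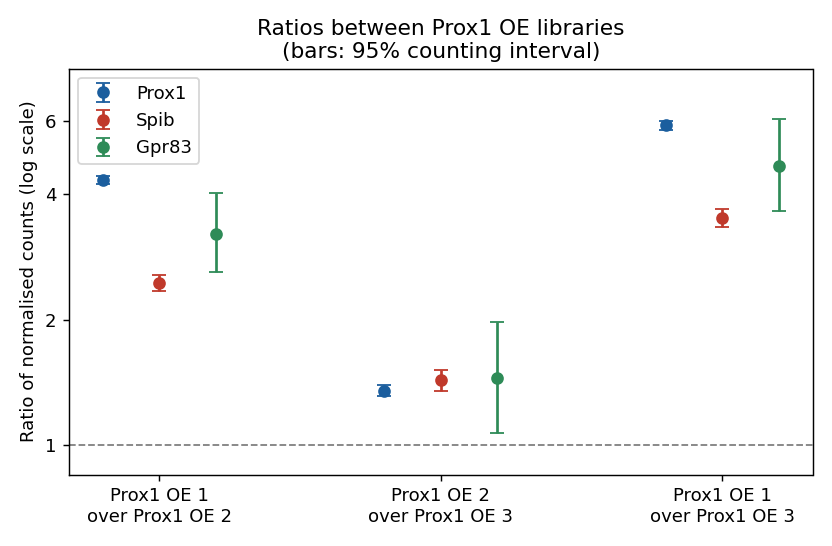
Ratio of normalised counts (log axis) between pairs of Prox1 OE libraries for Prox1, Spib and Gpr83, with bars for the 95% exact counting interval and a dashed line at 1. Between replicates 1 and 2 the ratio runs from 2.45 for Spib to 4.33 for Prox1, and between replicates 2 and 3 all 3 lie from 1.35 to 1.45.

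Put as amounts above Control, Spib gained 18.3 normalised counts for every 100 gained by Prox1 in Prox1 OE replicate 1, 47.6 in replicate 2 and 57.4 in replicate 3. The corresponding figures for Gpr83 were 0.937, 1.89 and 2.28. Both genes therefore held the smallest amount per unit of added Prox1 in the tumour with the most Prox1. The ratio of Spib to Gpr83 moved less, at 19.8, 26 and 26.3 in replicates 1, 2 and 3.

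Per kilobase of annotated exon, Control tumours held 495 and 556 normalised counts of Prox1 (percentiles 74.2 and 76.2 of the genes tested), 49.6 and 32.5 of Spib (percentiles 28.3 and 22.7) and 0.322 and 0 of Gpr83. In Prox1 OE replicates 1, 2 and 3 the levels per kilobase were 5732, 1325 and 981 for Prox1 and 2829, 1154 and 807 for Spib. Spib thus moved to percentiles of 81.2 to 94.2 in the induced tumours, close to Prox1 in replicates 2 and 3. Gpr83 remained a low gene there, at 80.5, 25 and 17.3 per kilobase (percentiles 15.8 to 36.1). The level of Prox1 per kilobase is uncertain in the induced tumours, because 8390 bases of annotated exon were used and the plasmid is labelled only as carrying FLAG-tagged mouse Prox1, of which 2211 bases are coding.

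The promoters of the members were read from RefSeq (GRCm38.p6, the sequence of mm10), as the 250 bases before the annotated start, to show which binding letters they hold. The motifs searched on both strands were the PROX1 consensus, its inner part AGACGNC, the prospero site CACNNCT and GAGGAA, the core bound by PU.1 and SPIB. They were chosen with the promoter sequences at hand. Of 32851 such windows in the genome, 0.0609%, 5.11%, 43.8% and 23.3% hold them. Spib is given first, from chr7:44532088-44532321 (minus strand), and the mouse Prox1 promoter from chr1:190170828-190171077 (minus strand), with matches in capitals.
Spib: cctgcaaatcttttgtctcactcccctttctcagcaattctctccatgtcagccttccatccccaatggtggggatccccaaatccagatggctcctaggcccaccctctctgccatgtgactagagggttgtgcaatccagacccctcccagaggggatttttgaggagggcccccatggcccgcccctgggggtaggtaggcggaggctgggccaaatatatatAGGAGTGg
Prox1: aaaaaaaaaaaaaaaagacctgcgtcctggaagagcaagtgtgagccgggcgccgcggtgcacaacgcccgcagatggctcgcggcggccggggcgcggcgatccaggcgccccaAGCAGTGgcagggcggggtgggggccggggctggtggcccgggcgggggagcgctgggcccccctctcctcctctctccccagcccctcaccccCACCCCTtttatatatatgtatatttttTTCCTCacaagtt

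The Spib window held CACNNCT at bases 24 to 18 before the start, in capitals, and a second overlapping copy at bases 21 to 15, whose end lies past the printed stretch. The window of the Prox1 start shown held CACNNCT at bases 135 to 129 and 41 to 35 and GAGGAA at bases 13 to 8, all in capitals. That of another Prox1 start (190169515), not printed, held CACNNCT at bases 105 to 99 and GAGGAA at bases 29 to 24. None of these windows, nor that of Gpr83 (chromosome 9, start 14860210), held the PROX1 consensus or AGACGNC, and the Gpr83 window held none of the 4 motifs. The plasmid copy of Prox1 has the doxycycline-dependent promoter in place of the mouse one.

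The 3 members lie on different chromosomes, and none of the tested protein coding neighbours was called higher with them. Among the 3 nearest protein coding genes on each side of each member, 15 of 18 had enough reads to test. In the limma fit over all 17105 genes (call at an adjusted p under 0.05), 0 of these 15 were called higher and 4 lower, with 17.1% of all genes called higher and 16.2% lower (33.3% in all). edgeR called 33.7% and DESeq2 38.9% of all genes. In the higher direction, 0 passed at an unadjusted p under 0.05, and 0 were called by edgeR or by DESeq2. The 4 lower genes were Ptpn14 and Cenpf near Prox1, Mybpc2 near Spib and Panx1 near Gpr83, the first, second and last being named after their values were seen. The call on Panx1 (adjusted p = 0.034 by limma) was lost without any library but Prox1 OE replicate 1 (0.057 to 0.19).

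Smyd2, a lysine methyltransferase gene 196 kb from Prox1, had 1993 and 2106 normalised counts in Control and 2001, 2275 and 2193 in Prox1 OE replicates 1, 2 and 3. On the other side, Rps6kc1 at 529 kb had a difference of -0.01 (log2, adjusted p = 0.97 by limma). The flanking genes of Spib are far closer. Pold1, which encodes the catalytic subunit of DNA polymerase delta, lies 0.675 kb away and had 1465 and 1275 in Control and 1059, 1172 and 934 in Prox1 OE. Mybpc2, a muscle myosin binding protein gene 1.34 kb away, had 45.2 and 42.4 in Control and 18.4, 13 and 4.63 in Prox1 OE (log2 difference -1.96, adjusted p = 0.035 by limma, 0.17 without Control replicate 1, 0.13 without Control replicate 2 and 0.075 without Prox1 OE replicate 2). Counts at Spib and at the gene beside it thus differed in opposite directions between the groups. Beside Gpr83, the DNA repair gene Mre11a at 23.1 kb had a difference of -0.42 (adjusted p = 0.17 by limma, and 0.012 without Prox1 OE replicate 1). Izumo1r, the folate receptor 4 gene at 15 kb on the other side, had too few counts to test, with 3.29 and 0.848 in Control and 9.2, 8.26 and 16.2 in Prox1 OE replicates 1, 2 and 3. Its highest library was the one in which Gpr83 was lowest among the induced tumours.

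**Figure D3:**
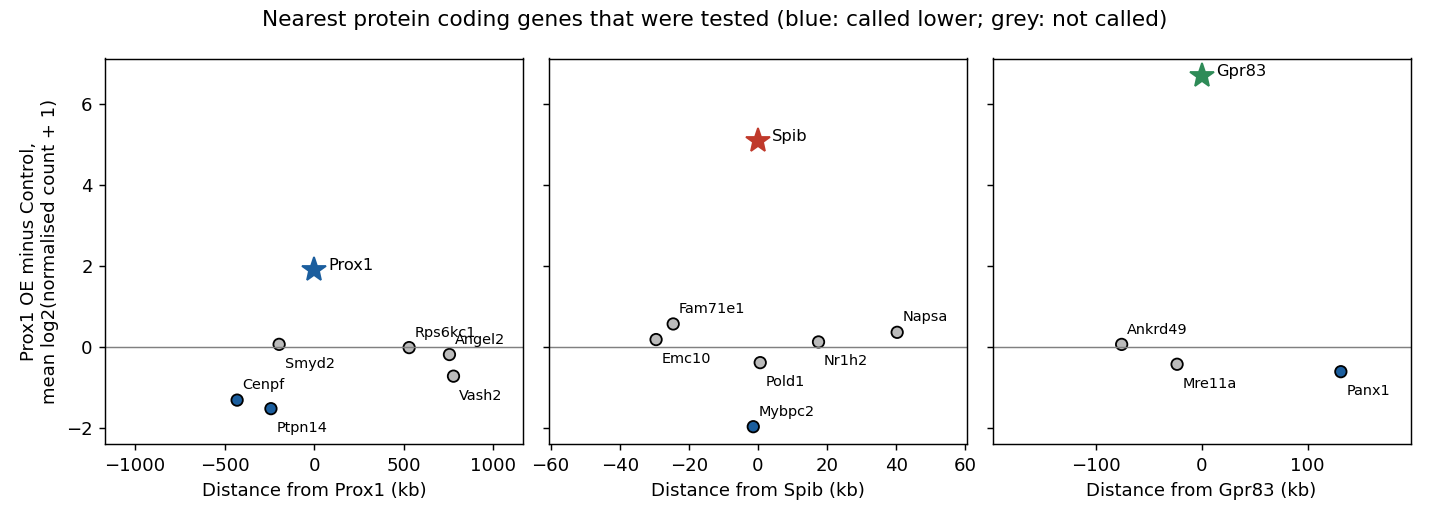
Difference between Prox1 OE and Control (mean log2(normalised count + 1)) of the tested protein coding neighbours against their distance in kb from Prox1, Spib and Gpr83, with each member as a star at distance 0. The 15 neighbours lie between -1.96 and 0.57, below the stars at 1.9, 5.09 and 6.69, the last of which depends on the added count.

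A pair of antisense transcripts overlap Prox1. Prox1os, on the opposite strand at the 5′ end of Prox1, had 129 and 192 normalised counts in Control and 236, 345 and 312 in Prox1 OE replicates 1, 2 and 3 (log2 difference 0.9 ± 0.25 SE, adjusted p = 0.032 by limma, and 0.25, 0.1 and 0.08 without Control replicate 1, Prox1 OE replicate 2 or Prox1 OE replicate 3). The call was also lost when libraries were scaled by their total count (log2 difference 0.47, adjusted p = 0.16 by limma), without the trend (0.058) and with no filter (0.056). It was highest in replicate 2, so that it did not follow the order of Prox1. Gm28172, the second one, had 9.04 and 6.78 in Control and 17.4, 17.7 and 11.6 in Prox1 OE (adjusted p = 0.17 by limma). The libraries preserve strand, but the strand setting of the counting was not given in the sources used here, so reads of Prox1 and its antisense partners may not be fully apart.

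The genes whose profile over the 5 libraries lay nearest to each member were sought among 12969 other genes with a mean of at least 100 normalised counts. Likeness was the root mean square (RMS) difference of log2(normalised count + 1) after centring each gene on its own mean. These genes were picked by their values and are described without a test, and no correlation is given over as few as 5 libraries. Spib and Gpr83, which were chosen for a shared pattern, were close to each other (RMS difference 0.833). Gpr83 was the second nearest gene to Spib and Spib the nearest to Gpr83. With 2 and 0 reads of Gpr83 in Control, its distances depend on the added count. With genes down to a mean of 10 included, Gpr83 was no longer among the 5 nearest to Spib. The RMS difference from Prox1 was 1.61 for Spib and 2.4 for Gpr83. From Prox1 they ranked 12136 and 12918 in nearness among the 12969 genes, whereas Prox1 ranked 54 from Spib and 53 from Gpr83. The RMS difference is not scaled for size, and the log2 differences between groups were 1.9, 5.09 and 6.69 for Prox1, Spib and Gpr83. These ranks therefore mix the size of a profile with its shape.

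The nearest gene to Prox1 was Cyp21a1, the steroid 21-hydroxylase gene, at an RMS difference of 0.325. It had 137 and 120 normalised counts in Control and 1057, 281 and 137 in Prox1 OE replicates 1, 2 and 3. The induced tumour with least Prox1 therefore held no more of it than Control replicate 1. Tmem151a, which encodes a transmembrane protein, followed at 0.396, with 67.4 and 71.2 in Control and 467, 238 and 160 in Prox1 OE. The estrogen sulfotransferase gene Sult1e1 (0.45) had 46 and 34.8 in Control and 312, 142 and 46.3 in Prox1 OE. Plk5, a polo-like kinase family gene (0.469), and Tiam2, an exchange factor for RAC (0.478), completed the 5. Each of the 5 was highest in replicate 1 and lowest in replicate 3 of the induced tumours.

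The gene nearest to Spib was Akr1c21, a hydroxysteroid dehydrogenase gene of the aldo-keto reductase family, at 0.453. It had 8.22 and 13.6 in Control and 564, 291 and 243 in Prox1 OE replicates 1, 2 and 3. It was also second nearest to Gpr83 (1.14). Hamp2, of the hepcidin family (0.879 from Spib), had 36.1 and 44.1 in Control and 771, 451 and 881 in Prox1 OE, and so was highest in replicate 3. H19, an imprinted noncoding RNA of fetal liver (1.03), had 243 and 314 in Control and 4882, 1838 and 1458 in Prox1 OE. Syt5, a synaptotagmin gene (1.04), had 85.4 and 97.5 in Control and 1379, 694 and 459 in Prox1 OE. Cyp2b10, a cytochrome P450 gene induced by the nuclear receptor CAR, was the one gene near Gpr83 (1.85) that was not near Spib, with 37 and 142 in Control and 1596, 662 and 757 in Prox1 OE. Cyp21a1, Akr1c21, Hamp2 and Cyp2b10 have close relatives or copies in the mouse genome, between which reads may have been split. When profiles were scaled to unit length, which compares shape without size, 0 of the 5 genes near Prox1, 1 of 5 near Spib and 1 of 5 near Gpr83 were shared with these. With genes down to a mean of 10 included, 2, 1 and 2 of 5 were shared, and Gm3839 (0.319), named after its values were seen, came nearest to Prox1.

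**Figure D4:**
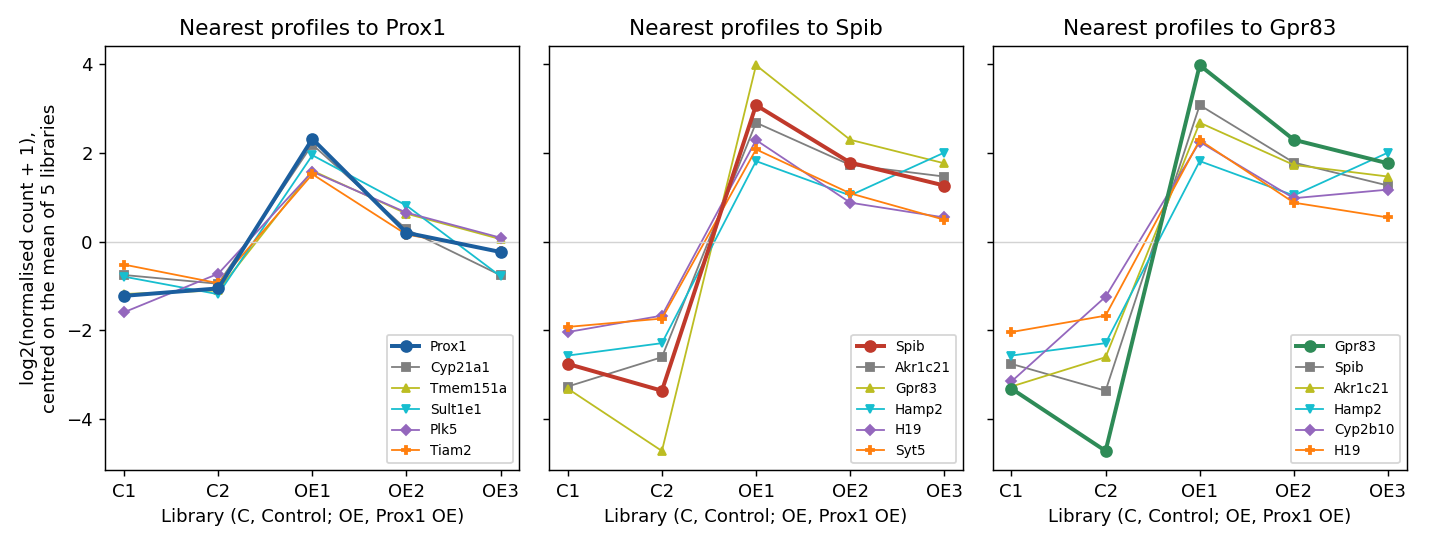
Centred log2(normalised count + 1) of each member (thick line) and of the 5 genes with the nearest profile (thin lines) in the 2 Control (C) and 3 Prox1 OE (OE) libraries. The genes beside Prox1 peak in OE1 and are lowest of the induced tumours in OE3, where Cyp21a1 at 137 is within its Control values, and those beside Spib and Gpr83 lie above both Control libraries in all 3 induced tumours.

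The wider setting of the members was followed in 12 lists of relatives, partners, regulators and cell type markers, which with the neighbours made 122 genes. Of the 107 tested, 12 (11.2%) were called higher and 29 (27.1%) lower by limma, beside 17.1% higher and 16.2% lower over all genes, the background of each list count that follows. Leaving out Control replicate 1 gave 3 higher and 9 lower, leaving out Control replicate 2 gave 6 and 12, leaving out Prox1 OE replicate 2 gave 8 and 18, leaving out Prox1 OE replicate 3 gave 8 and 21, and leaving out Prox1 OE replicate 1 gave 14 and 35. When the total count of each library was the scaling (total-count scaling), 7 were called higher and 51 lower. That scaling moved the median of all genes from -0.02 to -0.45 (log2) and the higher share of all calls from 51.4% to 17.7%, and differences below are relative to the size factors of the authors.

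No paralog moved with Prox1. Prox2, the only other family member, had 133 and 112 normalised counts in Control and 143, 124 and 130 in Prox1 OE (log2 difference 0.11, adjusted p = 0.71 by limma). Of 9 genes for proteins known to act with PROX1, 1 was called higher and 2 lower, with a median difference of -0.18, and under total-count scaling 1 and 5, with a median of -0.62. The higher one was Hnf4a, the nuclear receptor of hepatocyte identity, with 8414 and 10194 in Control and 19482, 18576 and 24052 in Prox1 OE replicates 1, 2 and 3 (log2 difference 1.15 ± 0.16 SE, adjusted p = 0.0033 by limma). Hnf4a was highest in the induced tumour with least Prox1. Nr2f2, which encodes the orphan receptor COUP-TFII, fell from 2530 ± 45.3 (SD, n = 2) to 1734 ± 14.7 (SD, n = 3; adjusted p = 0.0085 by limma, but 0.091 without Control replicate 1 and 0.09 without Control replicate 2). Kdm1a, the histone demethylase LSD1, fell from 3376 ± 104 to 2501 ± 205 (adjusted p = 0.027 by limma, and 0.21, 0.14 and 0.065 without Control replicate 1, Control replicate 2 or Prox1 OE replicate 3).

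Spib was chosen for its high level in Prox1 OE, so its family is described by the other members. Of the 22 other ETS genes tested, 0 were called higher and 9 lower by limma, with a median of -0.37, against -0.02 over all genes. Under total-count scaling these were 0 higher and 16 lower with a median of -0.8, against -0.45 over all genes. In the higher direction 1 passed at an unadjusted p under 0.05, which DESeq2 also called, and edgeR called 0. That gene was Spi1, encoding PU.1, with 623 and 430 normalised counts in Control and 948, 676 and 721 in Prox1 OE (log2 difference 0.58, adjusted p = 0.077 by limma and 0.049 by DESeq2). The 9 lower genes were Elf1, Elf2, Elf3, Elf4, Ehf, Ets1, Ets2, Etv4 and Etv6, of which the epithelial factor Ehf had 15359 and 15224 in Control and 7312, 5506 and 4325 in Prox1 OE replicates 1, 2 and 3 (adjusted p = 0.0035 by limma). Elf4 fell from 2693 ± 53.6 (SD, n = 2) to 994 ± 235 (SD, n = 3; adjusted p = 0.003 by limma). Etv2 had 0 reads in every library.

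In M cells Spib is known to be switched on by RANK signalling through noncanonical NF-kB. Of 9 tested genes of that route and of the OCT and IRF factors that act beside SPIB, 0 were called higher and 4 lower by limma, with a median of -0.38. In the higher direction 0 passed at an unadjusted p under 0.05, and edgeR and DESeq2 each called 0. Tnfrsf11a, the receptor RANK, had 352 and 264 normalised counts in Control and 301, 209 and 207 in Prox1 OE (adjusted p = 0.26 by limma). Pou2f1, encoding OCT1, had a difference of -0.7 (adjusted p = 0.017 by limma, and 0.12, 0.12 and 0.057 without Control replicate 1, Control replicate 2 or Prox1 OE replicate 2). Nfkb2, the precursor of p52, had a difference of -0.57 (adjusted p = 0.039 by limma, and 0.32, 0.091 and 0.095 without Control replicate 1, Prox1 OE replicate 2 or Prox1 OE replicate 3). Traf6 and Relb, named after their values were seen, were the other lower genes.

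The M cell markers did not move with Spib as a list. Of 10 tested, 2 were called higher and 5 lower by limma, with a median of -0.56. Gp2, the uptake receptor of mature M cells and a target of SPIB in the gut, was the most changed of all listed genes. It had 39158 and 43952 normalised counts in Control and 513, 76.7 and 48.6 in Prox1 OE replicates 1, 2 and 3 (log2 difference -8.37 ± 0.86 SE, adjusted p = 0.0023 by limma). Gp2 thus moved opposite to Spib between the groups, while within the induced tumours it had the same order. Ccl20, the chemokine of gut follicle epithelium, had a difference of -1.68 (adjusted p = 0.014 by limma, 0.11 without Control replicate 1). Ccl9 rose from 2671 ± 9.99 (SD, n = 2) to 5231 ± 1179 (SD, n = 3; adjusted p = 0.0081 by limma, 0.06 without Control replicate 1), and Aif1 had a difference of 0.9 (adjusted p = 0.0044). Both Ccl9 and Aif1 are also expressed by macrophages.

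Some markers of the blood cells that normally hold Spib were also called higher. Of 8 tested B cell markers, 3 were called higher and 0 lower by limma, with a median of 0.93, which became 1 and 0 with a median of 0.52 under total-count scaling. With the size factors, 0 passed in the lower direction at an unadjusted p under 0.05 or were called there by edgeR or DESeq2. The summed level of the 11 listed markers was 569 and 485 normalised counts in Control and 1299, 877 and 1492 in Prox1 OE replicates 1, 2 and 3. Spib had 8114, 3310 and 2314 in the same 3 libraries. Levels of unlike genes do not show how much Spib such cells would hold. Ighm, the immunoglobulin mu heavy chain, had a difference of 1.35 (adjusted p = 0.011 by limma, 0.051 and 0.068 without Control replicate 1 or 2), and Cd22 one of 1.11 (adjusted p = 0.023, and 0.12 without either Control replicate). Under total-count scaling the call on Cd22 was also lost (adjusted p = 0.11). The part of B cells in the level of Spib was not tested.

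Of 10 plasmacytoid dendritic cell markers, 2 were called higher (20%, near the 17.1% of all genes) and 1 lower, with a median of 0.66 and a summed level of 9216 to 9318 normalised counts in Control and 14133 to 22282 in Prox1 OE, most of it from the interferon-induced Bst2. Under total-count scaling 1 was called higher and 2 lower, with a median of 0.27. Siglech, the lectin that marks these cells in mice, had 14 and 11.9 in Control and 31.7, 33 and 48.6 in Prox1 OE replicates 1, 2 and 3. Within the induced tumours it was lowest in replicate 1 and highest in replicate 3. Its call (adjusted p = 0.023 by limma) was lost without any of 4 libraries, with adjusted p of 0.1 and 0.12 without Control replicate 1 or 2 and 0.054 and 0.072 without Prox1 OE replicate 2 or 3. It was also lost under total-count scaling (0.052). Bst2 had a difference of 1.26 (adjusted p = 0.0066 by limma, 0.051 without Control replicate 1), and Tcf4, the lineage factor of these cells, one of -0.37 (adjusted p = 0.04, with 0.064 to 0.27 when any library but Prox1 OE replicate 1 was left out). The part of these cells in the level of Spib was not tested either.

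Gpr83 is known from regulatory T cells and for its peptide ligands. Of 9 regulatory T cell markers, 5 could be tested, and of these 0 were called higher and 1 lower by limma, with 0 passing in the higher direction at an unadjusted p under 0.05 and 0 called there by edgeR or DESeq2. The median was -0.35, but listed genes went both ways. Tnfrsf4, named after its values were seen, had 22.2 and 23.7 in Control and 35.8, 37.8 and 44 in Prox1 OE (adjusted p = 0.11 by limma). Izumo1r, the neighbour of Gpr83 given above, is also on this list and was higher in every Prox1 OE library, with too few counts to test. Foxp3, the factor that defines these cells, had 4.93 and 3.39 normalised counts in Control and 5.11, 11.8 and 20.8 in Prox1 OE replicates 1, 2 and 3, too few to test. The part of regulatory T cells in the level of Gpr83 was not tested. The summed level of the 9 markers was 976 to 1183 in Control and 808 to 940 in Prox1 OE, most of it from Lrrc32 (named after its values were seen), with 804 and 978 in Control and 781, 660 and 634 in Prox1 OE replicates 1, 2 and 3. Under total-count scaling 0 of the 5 were called higher and 2 lower. The lower one was Ikzf2, encoding HELIOS, with a difference of -0.86 (adjusted p = 0.048 by limma), a call that was lost when any one library was left out (adjusted p 0.058 to 0.34) and with TMM factors (0.051). Pcsk1n, the proSAAS gene, had 0 and 0.848 in Control and 3.07, 7.08 and 3.47 in Prox1 OE, too few to test. Gpr171, a related receptor for another proSAAS peptide, had 43.5 and 39.8 in Control and 37.8, 41.3 and 57.9 in Prox1 OE (adjusted p = 0.82 by limma).

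Gpr83 is a glucocorticoid-induced gene in T cells, so others that glucocorticoids induce were followed. Of 9 tested, 2 (22.2%, against 17.1% of all genes) were called higher and 0 lower by limma, with a median of 0.24. Under total-count scaling 1 was called higher and 2 lower, and the median was -0.2. With the size factors, in the lower direction 0 passed at an unadjusted p under 0.05, and edgeR and DESeq2 each called 0. Tat, the hepatocyte tyrosine aminotransferase, had 3744 and 5723 normalised counts in Control and 12552, 37573 and 59699 in Prox1 OE replicates 1, 2 and 3 (log2 difference 2.72, adjusted p = 0.012 by limma, 0.079 without Control replicate 1 and 0.055 without Prox1 OE replicate 2). The part of glucocorticoid in the level of Gpr83 was not tested. Dusp1, a phosphatase of MAP kinases, had a difference of 0.55 (adjusted p = 0.045 by limma), which was lost without any library but Prox1 OE replicate 1 (0.1 to 0.2) and under total-count scaling (0.57). The receptor gene itself, Nr3c1, had a difference of -0.18 (adjusted p = 0.32 by limma).

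PROX1 is also the factor of lymphatic endothelium. Of 8 tested markers of that tissue, 2 were called higher and 1 lower, with a median of 0.24. Under total-count scaling 1 was called higher and 3 lower, and the median was -0.19. Their summed level overlapped between groups, at 5015 to 5993 normalised counts in Control and 4341 to 6132 in Prox1 OE. Flt4, the receptor VEGFR3, had 986 and 1348 in Control and 1439, 1409 and 1852 in Prox1 OE (adjusted p = 0.11 by limma). Podoplanin (Pdpn), which bile duct cells can also express, fell, with 1005 and 830 in Control and 253, 67.3 and 103 in Prox1 OE (log2 difference -2.91, adjusted p = 0.0056 by limma). Ccl21a had 1 read in each Control library and 22.5, 28.3 and 26.6 normalised counts in Prox1 OE, at least 10.3-fold above the floor, and it has near-identical copies in the mouse genome that make its count uncertain. Reln had a difference of 0.55 (adjusted p = 0.025 by limma), with 0.22, 0.075 and 0.062 without Control replicate 1, Control replicate 2 or Prox1 OE replicate 3, and 0.52 under total-count scaling. No marker in the 5 cell type lists was at 0 in every library.

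The genes of the other plasmids fell between the groups, while within the induced tumours both had the order of Prox1. Akt1 had 57782 and 55267 normalised counts in Control and 30413, 29720 and 22530 in Prox1 OE replicates 1, 2 and 3 (log2 difference -1.05, adjusted p = 0.0057 by limma, 0.06 without Control replicate 1). Notch1 had 13002 and 11967 in Control and 7027, 5094 and 4524 in Prox1 OE (log2 difference -1.19, adjusted p = 0.0046). Plasmid and mouse transcripts of these genes were not separated, and the part of plasmid dose in the levels of Prox1, Spib and Gpr83 was not tested.

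**Figure D5:**
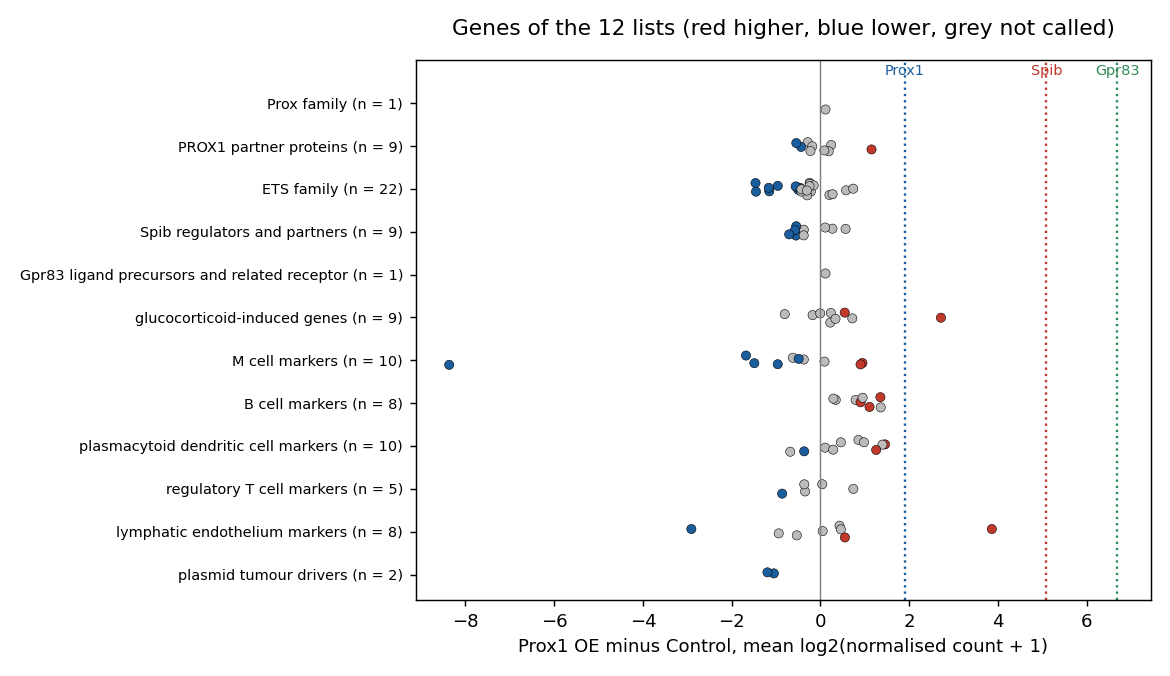
Difference between Prox1 OE and Control (mean log2(normalised count + 1)) of every tested gene of the 12 lists, 1 point per gene, coloured by its call in limma, with dotted lines at the 3 members. Of the listed genes, Tat at 2.72 and Ccl21a at 3.86, whose value depends on the added count, lie beyond Prox1 on the higher side and none lies beyond Spib, while Gp2 at -8.37 lies farthest on the lower side.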

How the data were processed

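RNA from dissected tumours was made into strand-preserving dUTP libraries by the authors, aligned to mm10 with STAR and scaled with DESeq2. The counting tool and annotation were not given in the sources used here. The deposited values are a signal, the reads of a gene over the size factor of its library. Whole reads were recovered for 100% of values (tolerance 0.01), and 0 columns were left unassigned. A further deposited table holds the authors' own comparison (means, shrunken fold changes, p-values, adjusted p-values before and after weighting) and was not used.

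Prox1, Spib, Gpr83 and the 12 lists were chosen with earlier results of these data known. log2(normalised count + 1) of the 17105 genes with a mean of at least 10 was fitted with limma 3.58.1 (R 4.3.3, lmFit, eBayes with trend, two-sided, Benjamini-Hochberg over all genes, threshold 0.05), without covariates. With 2 against 3 libraries, the smallest exact permutation p is 0.1, so none was used. The script was tested on simulated data. Gene positions came from GENCODE (GRCm38), matching 99.5% of identifiers, and promoters from RefSeq. Named genes were the members, the 5 nearest profiles of each, the nearest protein coding gene on each side, and from each list the first gene and the 2 most changed called genes in each direction. One gene that this rule names is not reported here, though counts and sums over its list include it. Alternatives were edgeR 4.0.16 and DESeq2 1.42.0 on recovered reads, TMM factors, the total count, pseudocounts of 0.1 and 10, no filter, a mean of at least 50, no trend, a replicate block and each library left out. Ratios between libraries have exact binomial 95% intervals.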

Additional observations from a re-analysis of the deposited data

How the results depend on the processing

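All 3 members kept a higher level in Prox1 OE under every alternative. They were chosen on this contrast and none overlapped between the groups, so this is a description and no support. Without each library in turn, the log2 difference ran from 1.12 to 2.39 for Prox1, from 4.57 to 5.48 for Spib and from 5.99 to 7.39 for Gpr83. The value of Gpr83, 6.69, became 7.98 with DESeq2, 8.64 with a pseudocount of 0.1 and 4.05 with a pseudocount of 10, since its Control level is at the floor. Genes called over the whole table numbered 5702, and 1511 to 7494 without each library in turn, with fewest when Control replicate 1 was left out. Listed genes called higher numbered 12, with 3 to 14 on leaving out a library and 7 with the total count. Listed genes called lower numbered 29, with 9 to 35 on leaving out a library, 17 without the trend and 51 with the total count. The other fits were within 1.5 times these counts. Where 1 Control library is left out, the remaining one is assumed to vary like the other group. In a fit blocked by replicate number, for which Prox1 OE replicate 3 has no partner and was left out, differences were 2.39 for Prox1, 5.48 for Spib and 7.14 for Gpr83, with 10 listed genes higher, 27 lower and 5187 genes called. No label ties the numbers, and same-numbered libraries deviated with correlations of 0.14 and 0.02. For the 45 other named genes tested, 586 of 671 values under alternatives kept the call or the lack of one, 70 lost the call, 15 gained it and 0 changed sign among called genes. Genes without a call could change sign, as Prox2 did under the total count (0.11 to -0.32). Of the 32 called, 19 lost the call without Control replicate 1 and 12 without Control replicate 2, against 0 with edgeR or DESeq2. Depth limits Gpr83, Ccl21a and the genes too low to test.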
